A study of Mus musculus with 12 samples.

Results

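The transcription start sites of 10 genes for division kinases and for the spindle checkpoint were examined in mouse spermatocytes: the Aurora kinases Aurka, Aurkb and Aurkc, the chromosomal passenger subunit Incenp, the Polo-like kinases Plk1 and Plk4, and the checkpoint genes Bub1, Bub1b, Mad2l1 and Knl1. They are 10 of the 21938 protein-coding genes of the GENCODE M21 annotation. The measurement was leChRO-seq, length extension chromatin run-on sequencing, which maps RNA that engaged polymerases extend in isolated chromatin. A machine-learning tool, dREG, marks sites whose reads look like those of initiating polymerases and gives every called peak a score. The libraries came from wild-type adult mice (methods of the study: C57Bl/6J or DBA/2J background) whose testis cells were separated by size and density at unit gravity (STAPUT) into fractions enriched for a prophase I substage: leptonema/zygonema (written LZ), pachynema (written P) or diplonema (written D), with 4 libraries for each. These fractions were enriched and not pure, and the study names spermatogenic cells of earlier or later stages as potential contamination. It also reports that most contaminating cells in every fraction were elongated spermatids. All groups shared the wild-type genotype, with no treatment. The 4 libraries of a substage were merged before peaks were called, so each substage has 1 list and no value below has a replicate error, and no test between substages could be made.

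A peak was assigned to a gene as a promoter peak when its nearest edge lay under 1000 bp from any annotated start site (TSS) of that gene. This rule found 23 promoter peaks among the 71107 peaks of the LZ list, 26 among the 68352 of the P list and 21 among the 38603 of the D list, which together make 70 of 178062. A further 3 peaks, all in LZ, lay inside a gene or across its end without being promoter peaks. They belong to 2 of the 10 genes in LZ, and 0 had such a gene-body peak in P or D. Of all protein-coding genes, 28.6% had a gene-body peak in LZ, 26.9% in P and 15.8% in D. The dREG score is neither bounded nor put on a common scale across substages, and it is not a transcript level. Scores were therefore compared between substages only as ranks within a list. The list percentile is the percent of peaks in the same list with a lower score. The gene percentile is the percent of the 21938 protein-coding genes whose strongest promoter peak scored lower in that list, with genes without a promoter peak placed last. Both measures refer to the strongest promoter peak of a gene. The lists differ in length and in their scores (median score 0.586 in LZ, 0.572 in P and 0.532 in D), so a list percentile depends on which other peaks were called, and the gene percentile is given beside it. The gene percentile has a floor set by the genes without a peak, as a called gene cannot fall below 39.8 in LZ, 39.5 in P and 48.4 in D. A rank over the same genes in each list, the 10851 called in every list, was added after the data were seen and is named the common-gene percentile. In these bulk fractions, fewer cells of a type and less nascent RNA per cell cannot be told apart.

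Aurora kinases are serine/threonine kinases of cell division. AURKA acts at the poles of the spindle, whereas AURKB and AURKC are alternative catalytic subunits of the chromosomal passenger complex, in which INCENP is the scaffold. AURKC is known for its role in germ cells. PLK1 acts at centrosomes, kinetochores and chromosome arms, and PLK4 starts the duplication of centrioles. The spindle checkpoint delays anaphase until every kinetochore is attached to microtubules. KNL1 is the kinetochore scaffold that binds BUB1 and BUBR1 (the product of Bub1b), and MAD2 (the product of Mad2l1) is part of the complex that holds back the anaphase-promoting complex. Prophase I spermatocytes lie ahead of the meiotic divisions in which these proteins act.

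Start site sequences are shown for 5 of the genes, chosen because Aurka had the highest-scoring peak of the set in LZ, Plk1 and Bub1 had a lower gene percentile in D than in LZ, Mad2l1 had a higher one, and Aurkc had no peak. They are RefSeq promoters of build GRCm38.p6, each 250 bases before and 50 after the start base, 5′ to 3′ on the strand of the gene. Capitals mark matches on either strand to letters searched in all promoters: TTTGAA and TTCGAA (the cell cycle genes homology region), CCAAT (bound by NF-Y), CNGTT (the core bound by MYB proteins), GCGGGAA (E2F) and TGACGTCA (CREB).
Aurka, chr2:172370521-172370820 (minus strand): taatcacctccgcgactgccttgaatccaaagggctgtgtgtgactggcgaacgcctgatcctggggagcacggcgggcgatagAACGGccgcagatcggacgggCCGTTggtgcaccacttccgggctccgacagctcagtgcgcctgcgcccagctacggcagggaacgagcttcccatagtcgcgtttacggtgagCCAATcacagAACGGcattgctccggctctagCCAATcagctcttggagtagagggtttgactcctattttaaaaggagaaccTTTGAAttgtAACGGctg
Plk1, chr7:122159185-122159484 (plus strand): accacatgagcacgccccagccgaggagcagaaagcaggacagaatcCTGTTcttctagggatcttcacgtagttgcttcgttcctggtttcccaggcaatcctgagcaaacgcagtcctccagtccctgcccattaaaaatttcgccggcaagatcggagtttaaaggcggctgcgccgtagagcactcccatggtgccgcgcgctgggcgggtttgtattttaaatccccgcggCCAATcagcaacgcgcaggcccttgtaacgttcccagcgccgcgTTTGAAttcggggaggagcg
Bub1, chr2:127831810-127832109 (minus strand): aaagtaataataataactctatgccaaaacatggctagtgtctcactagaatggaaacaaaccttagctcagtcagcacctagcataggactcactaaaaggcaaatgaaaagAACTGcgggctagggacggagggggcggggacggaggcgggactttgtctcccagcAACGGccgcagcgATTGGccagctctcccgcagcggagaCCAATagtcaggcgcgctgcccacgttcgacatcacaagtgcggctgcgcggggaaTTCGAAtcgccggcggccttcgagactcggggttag
Mad2l1, chr6:66534971-66535270 (plus strand): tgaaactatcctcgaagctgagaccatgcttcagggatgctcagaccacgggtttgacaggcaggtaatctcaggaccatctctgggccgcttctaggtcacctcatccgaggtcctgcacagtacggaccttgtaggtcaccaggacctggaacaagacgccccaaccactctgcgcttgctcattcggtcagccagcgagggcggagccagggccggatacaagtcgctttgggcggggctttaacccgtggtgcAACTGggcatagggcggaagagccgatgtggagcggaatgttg
Aurkc, chr7:6995135-6995434 (plus strand): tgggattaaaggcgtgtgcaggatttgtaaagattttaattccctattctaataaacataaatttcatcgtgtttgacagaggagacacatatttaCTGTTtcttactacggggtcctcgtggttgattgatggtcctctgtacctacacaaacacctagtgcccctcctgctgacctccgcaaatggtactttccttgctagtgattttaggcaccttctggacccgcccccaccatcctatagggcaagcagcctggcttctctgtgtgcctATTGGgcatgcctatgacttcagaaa

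The whole 300 bases lay inside promoter peaks in each list for Plk1, Bub1 and Mad2l1. The RefSeq start base lay at -35 bp from the GENCODE gene start for Aurka, -4 bp for Plk1, 6 bp for Bub1, -169 bp for Mad2l1 and 85 bp for Aurkc, with negative values upstream. For Aurka, 300 bases lay inside peaks in LZ, 290 in P and 280 in D, and for Aurkc 0 in every list. Of the 10 genes, 8 had an entry in the promoter table, which did not include Aurkb and Incenp. TTTGAA was found in 4 of these 8 promoters, against 17.9% of the 32851 promoters in the table. Its first base lay at position +30 in Plk1, +31 in Knl1, +32 in Aurka and +40 in Bub1b, counted from the start base as 0. TTCGAA was found in 2 of 8 (1.56% of all promoters), at +14 in Bub1 and at -188 in Bub1b. CCAAT was found in 5 of 8 (37.4% of all). It lay before the start in Aurka (-51 and -19), Plk1 (-14), Bub1 (-68 and -42) and Bub1b (-113), and after it in Aurkc (+24). CNGTT, short letters present in 80.3% of all promoters, was found in 8 of 8. GCGGGAA was found in 1 of 8, Plk4 at -120 (4.6% of all), and TGACGTCA in 0 of 8 (1.79% of all). A match is a description of the letters and not of a bound factor.

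At least 1 promoter peak was called in every list for 9 of the 10 genes, and Aurkc had none in any list. Over all protein-coding genes, 60.2% had a promoter peak in LZ, 60.5% in P and 51.6% in D. All 3 lists held one for 49.5% of genes, and 35.9% had one in no list. A call in LZ and P that was missing in D was found for 0 of the 10 genes, and for 7.51% of all genes. The same 9 genes had a TSS inside a peak in each list, against 56.5%, 56.8% and 47.9% of all genes. The strongest promoter peak scored above the median of its list for 9 of the 9 called genes in LZ (85.6% of all called genes), 9 of 9 in P (84.7%) and 7 of 9 in D (79.5%). The median list percentile of the 9 genes was 84.1 in LZ, 89.9 in P and 77.6 in D, and the same medians over the 10851 genes called in all 3 lists were 86.0, 88.2 and 79.7. The median gene percentiles were 71.6, 78.1 and 73.3 for the 9 genes and 74.6, 75.1 and 75.1 for the 10851. The percentiles of the set thus lay close to those of called promoters in general.

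Several peaks lay side by side at most of these starts. In LZ, 9 of the 9 called genes had 2 or more promoter peaks (76.3% of all called genes), in P 8 of 9 (78.3%) and in D 8 of 9 (68.7%). Neighbouring peaks were often 20 bp apart, the smallest gap seen, so a count of peaks is not a count of separate sites. The promoter peaks were 140 to 890 bp wide in LZ, 190 to 990 bp in P and 130 to 890 bp in D. The strongest promoter peak of LZ overlapped that of P by at least 1 bp for 9 of 9 genes (89.2% of all genes called in both lists). For P against D this held for 8 of 9 (88.8%) and for LZ against D for 8 of 9 (85.6%), and the exception in both was Plk1. By the stricter measure of peak centres within 150 bp, 8 of 9 were shared between LZ and P (80.5% of all), 6 of 9 between P and D (76.5%) and 6 of 9 between LZ and D (71.7%). The centres that lay farther apart were those of Incenp between LZ and P (230 bp), of Plk1 (960 bp), Knl1 (410 bp) and Bub1 (160 bp) between P and D, and of Plk1 (860 bp), Knl1 (420 bp) and Plk4 (160 bp) between LZ and D.

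**Figure D1:**
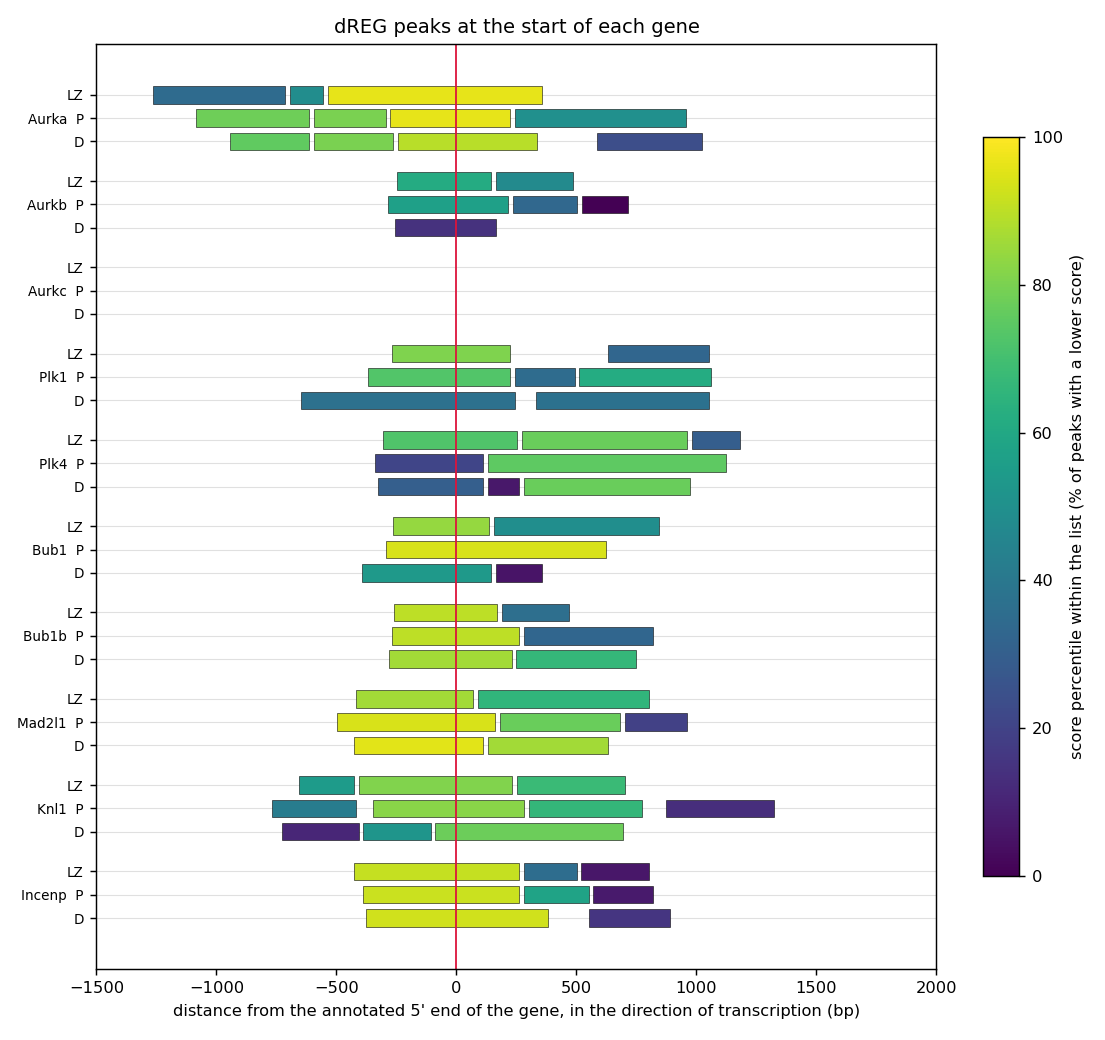
Promoter and nearby peaks of the 10 genes in the 3 lists (LZ, leptonema/zygonema; P, pachynema; D, diplonema), drawn to scale by distance from the annotated 5′ end of the gene (bp, in the direction of transcription). Each bar is a called peak, and its colour is the list percentile of its score. The red line marks the annotated 5′ end. Peaks beyond the axis, which include 3 gene-body peaks, are not drawn. A peak covers the 5′ end of 9 genes in each list, the row of Aurkc is empty, and in Plk4 the brightest peak lies downstream of the 5′ end.

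Among the Aurora kinases, Aurka had strong promoter peaks in every list, Aurkb weaker ones, and Aurkc none. Aurka (ENSMUSG00000027496.15, chr2:172356190-172370535, minus strand) had a strongest promoter peak of score 1.287 in LZ, 1.248 in P and 1.001 in D. This gave list percentiles of 96.4, 96.4 and 89.4 and gene percentiles of 93.7, 91.8 and 84.9. Aurka led the 9 genes in LZ and in P and stood at rank 3 of them in D. Its peak also covered both annotated TSSs of Cstf1, a gene for a subunit of the cleavage stimulation factor, which starts 146 bp away on the plus strand, in every list. The score of this peak therefore cannot be assigned to Aurka alone. Each list also held 2 peaks on the Cstf1 side of the start, with other boundaries in each. Their list percentiles were 48.7 and 34.5 in LZ, 80.0 and 77.8 in P, and 80.0 and 75.4 in D.

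Aurkb (ENSMUSG00000020897.12, chr11:69045647-69051664, plus strand) had a peak over its start with a score of 0.705 in LZ, 0.632 in P and 0.333 in D. It was the lowest of the 9 called genes in every list. Its list percentile was 61.1 in LZ, 56.3 in P and 14.3 in D, a difference of -46.8 points between D and LZ and of -42.0 between D and P. The latter became -8.3 when all lists were cut to the size of the D list. Its gene percentile was 52.6, 50.7 and 50.4, a difference of -2.2 points, with gene ranks of 10386, 10804 and 10869 of 21938. Aurkb lay close to the floor for called genes in D (48.4) and farther above the floor in LZ (39.8) and in P (39.5). Its common-gene percentile was 11.8 in LZ, 7.2 in P and 3.1 in D. Among the genes called in every list, Aurkb thus ranked low in each list and lowest in D, by a smaller step than in the list percentile. The number of its promoter peaks was 2 in LZ, 3 in P and 1 in D.

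Aurkc (ENSMUSG00000070837.5, chr7:6995300-7003091, plus strand) had 5 annotated TSSs, and 0 of them lay in a peak of any list. It had no gene-body peak either. The nearest peak to any of its TSSs was 84632 bp away in LZ (score 0.298), 17430 bp in P (score 0.733) and 61990 bp in D (score 0.356). The absence of a call says that no initiation signature passed the detection of dREG at the depth of these merged libraries. It does not say that the gene was not transcribed.

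Incenp (ENSMUSG00000024660.9, chr19:9872296-9899551, minus strand), the scaffold of the passenger complex, kept a strong promoter peak with a score of 1.192 in LZ, 1.164 in P and 1.064 in D. Its list percentiles were 91.3, 92.1 and 92.8 and its gene percentiles 84.0, 82.2 and 89.3. Its strongest peak also covered TSSs of AC132253.4, a processed transcript that starts 139 bp away on the opposite strand: 3 of 3 TSSs in LZ, 3 of 3 in P and 2 of 3 in D. AC132253.8, an annotated transcript still to be experimentally verified, starts 844 bp away on the same strand, and its TSS lay in a peak in D only of the 3 lists. Next to the promoter peaks, a separate upstream peak lay past the distance limit in every list, 1980 bp from the nearest Incenp TSS in LZ, 1900 bp in P and 1860 bp in D. The scores of this upstream peak were 1.209, 0.968 and 0.419.

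The Polo-like kinases differed from each other in D. Plk1 (ENSMUSG00000030867.7, chr7:122159439-122169873, plus strand), whose start sequence is printed above, had a strongest promoter peak of score 1.009 in LZ, 0.835 in P and 0.444 in D. Its list percentiles were 80.7, 72.9 and 37.2 (D minus P -35.7, or -14.8 with lists of equal size), and its gene percentiles 67.1, 58.7 and 55.1. The gene percentile was thus 12.0 points lower in D than in LZ, and 17.2% of the 10851 genes called in every list had a lower difference. The peak over the TSS had list percentiles of 80.7, 72.9 and 37.0. Another peak inside the gene, centred 881 bp from the gene start in LZ, 901 bp in P and 911 bp in D, had list percentiles of 32.7, 61.5 and 37.2. In P a peak of list percentile 34.8 lay between it and the TSS peak, with gaps of 20 bp. The peaks of P thus formed an adjoining run. The TSS peak was thus far above the downstream peak in LZ, and in D their scores were almost level, 0.443 at the TSS and 0.444 downstream. The TSS of the antisense transcript Gm15489, which starts 38 bp away, lay in the same TSS peak in each list.

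Plk4 (ENSMUSG00000025758.10, chr3:40800019-40816883, plus strand) had a strongest promoter peak of score 0.947 in LZ, 0.867 in P and 0.815 in D. Its list percentiles of 77.3, 75.1 and 77.1 were nearly level, but with lists cut to equal size D was 21.3 points above P. Its gene percentile was 63.2 in LZ, 60.4 in P and 73.0 in D, so D was 12.6 points above P. This strongest peak lay downstream of the gene start, centred 571 bp from it in LZ, 621 bp in P and 731 bp in D, and it covered an annotated TSS 762 bp from the gene start in each list and, in P only, also the TSS at 235 bp. The peak over the gene start itself scored 0.861 in LZ, 0.375 in P and 0.405 in D, with list percentiles of 72.3, 20.5 and 30.0. In LZ the start and downstream peaks were thus close in rank, and in P and D the downstream peak was far above the start peak. Of the 9 annotated TSSs of Plk4, 7 lay in a peak in each list.

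Among the checkpoint genes, Bub1 and Mad2l1 were alike in P and far apart in D. Bub1 (ENSMUSG00000027379.13, chr2:127801122-127831865, minus strand) encodes a kinase that phosphorylates histone H2A at centromeres. Its strongest promoter peak scored 1.069 in LZ, 1.195 in P and 0.566 in D. Its list percentiles were 84.1, 93.8 and 53.9, and its gene percentiles 71.6, 85.7 and 60.3. Bub1 in P was thus 14.1 points above LZ, and in D 25.3 points below P (a difference of -25.3). Only 1.9% of the 10851 genes had a lower difference between D and P. In the list percentile the difference between D and P was -39.8, or -35.0 with lists of equal size. It was -74.2 when only peaks with a score of at least 0.5 were ranked, a cut close to the D score of Bub1 (0.566). In P a peak of 920 bp covered the start, whereas in LZ and in D a start peak of 400 and 540 bp was followed 20 bp later by a weaker one, of list percentile 49.1 in LZ and 5.4 in D.

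Mad2l1 (ENSMUSG00000029910.14, chr6:66535390-66547220, plus strand) had a strongest promoter peak of score 1.103 in LZ, 1.195 in P and 1.119 in D. Its list percentiles were 86.1, 93.8 and 95.4. Its gene percentile was 74.7 in LZ, 85.7 in P and 92.8 in D, with gene ranks of 5539, 3123 and 1560. Mad2l1 was the only one of the 9 genes with a higher gene percentile at each step. By list percentile Incenp was also higher at each step (91.3, 92.1 and 92.8). Of the 10851 genes, 89.3% had a lower difference in gene percentile between D and LZ than the 18.1 points of Mad2l1. The second peak of Mad2l1, which also covered an annotated TSS, had list percentiles of 65.3, 77.3 and 86.1. Both peaks of the gene thus ranked higher in D than in LZ. Mad2l1 had the highest score of the 9 genes in D and stood at rank 4 of them in LZ.

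Bub1b and Knl1 differed less between lists. Bub1b (ENSMUSG00000040084.9, chr2:118598211-118641591, plus strand) had a strongest promoter peak of score 1.17 in LZ, 1.125 in P and 0.949 in D, with list percentiles of 89.9 in P and 86.2 in D and gene percentiles of 81.6, 78.1 and 81.2. Knl1 (ENSMUSG00000027326.13, chr2:119047119-119105501, plus strand) had scores of 1.017, 0.987 and 0.82, list percentiles of 81.2, 82.2 and 77.6, and gene percentiles of 67.7, 67.0 and 73.3. Between P and D the list percentile was lower in D for both genes (-3.7 for Bub1b and -4.7 for Knl1) and the gene percentile higher, so their direction depends on the ranking. In neither gene did the gene percentile of any list differ from that of another by over 10 points. By the common-gene percentile Bub1b also stayed within 10 points, whereas Knl1 was 12.1 points higher in D (46.3) than in P (34.2). In D the strongest peak of Knl1 was centred 410 bp from its centre in P, and it lay mostly inside the gene, from 88 bp before the gene start to 691 bp after it. A peak of list percentile 52.1 lay just upstream in D.

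**Figure D2:**
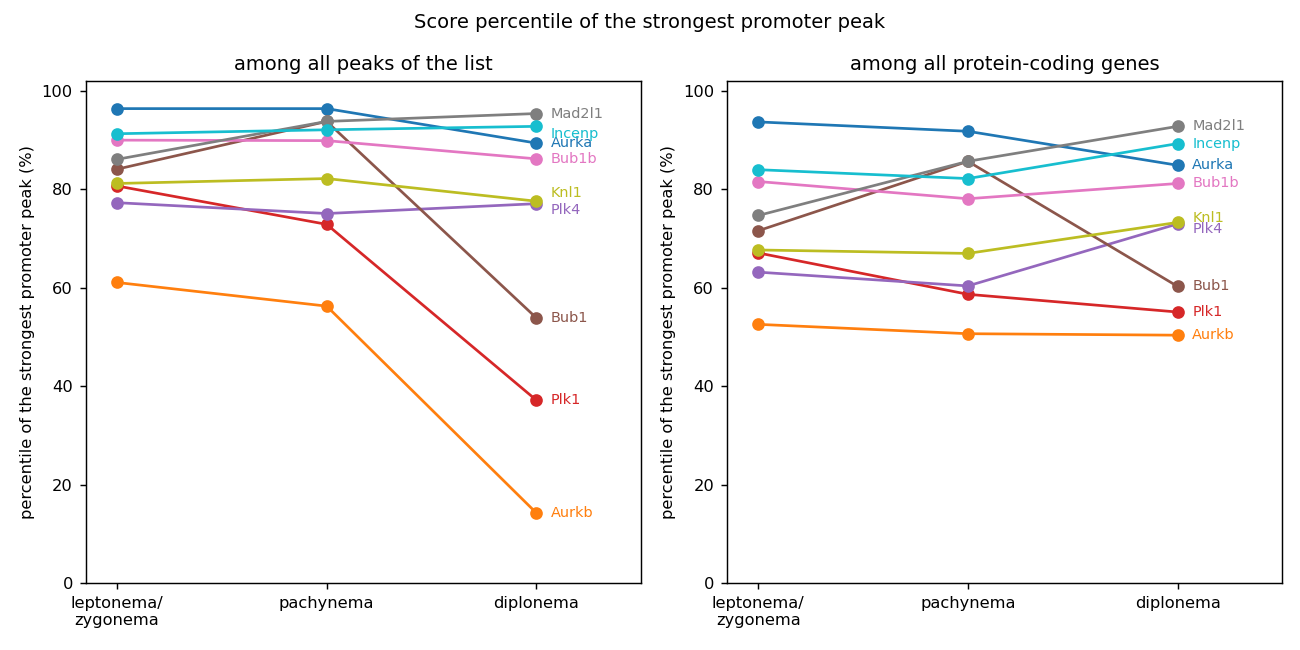
Percentile (%) of the strongest promoter peak of each called gene in leptonema/zygonema, pachynema and diplonema. The left panel ranks the peak among all peaks of its list, the right panel among all protein-coding genes. Each line is a gene with 1 pooled value per substage, and no error can be drawn. The lines of Aurkb, Plk1 and Bub1 drop to 14.3, 37.2 and 53.9 in diplonema on the left, and on the right Aurkb is nearly flat, from 52.6 to 50.4, close to the floor of called genes in diplonema (48.4).

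Across the set, the gene percentile was lower in P than in LZ for 7 of 9 genes (49.4% of all genes called in both lists), lower in D than in P for 4 of 9 (44.0%) and lower in D than in LZ for 5 of 9 (44.1%). By the list percentile, 4 of 9 were lower in P than in LZ (42.7%), 6 of 9 lower in D than in P (72.8%) and 7 of 9 lower in D than in LZ (63.1%). A difference of over 10 points of gene percentile between P and LZ was seen for Bub1 and Mad2l1, both higher in P (14.6% of all genes were higher by that much), and for 0 of 9 lower (14.5%). Between P and D, Plk4 was higher in D by over 10 points (18.7% of all) and Bub1 lower (14.9%). Between LZ and D, Mad2l1 was higher in D (25.8% of all), and Plk1 and Bub1 were lower (20.2%). By the common-gene percentile, 7 of 9 genes were lower in P than in LZ (49.8% of the 10851), 4 of 9 lower in D than in P (47.1%) and 5 of 9 lower in D than in LZ (47.8%), the same counts as by the gene percentile. Its steps were wider, since its scale spans only called genes. A difference of over 10 points between LZ and P was seen for Bub1 and Mad2l1, higher in P (26.4% of the 10851), and Plk1, lower in P (26.0%). Between P and D, 4 of 9 were higher in D by over 10 points (Plk4, Mad2l1, Incenp and Knl1, against 30.8%) and 2 of 9 lower (Bub1 and Aurka, against 27.7%). Between LZ and D, 3 of 9 were higher in D (Mad2l1, Plk4 and Incenp, against 34.5%) and 3 of 9 lower (Plk1, Bub1 and Aurka, against 31.8%). Mad2l1 stood at 50.0 in LZ, 71.1 in P and 85.4 in D, Bub1 at 44.2, 71.1 and 20.8, Plk1 at 35.6, 18.9 and 11.3, and Plk4 at 28.6, 21.9 and 45.6. Aurka stood at 87.3, 83.4 and 69.5, Incenp at 68.3, 64.1 and 78.3, Knl1 at 36.6, 34.2 and 46.3, and Bub1b at 63.4, 55.8 and 62.1. The median difference in gene percentile between D and LZ was -0.39 points for the 9 genes and 1.76 for the 10851. Differences in both directions were therefore found within the set.

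**Figure D3:**
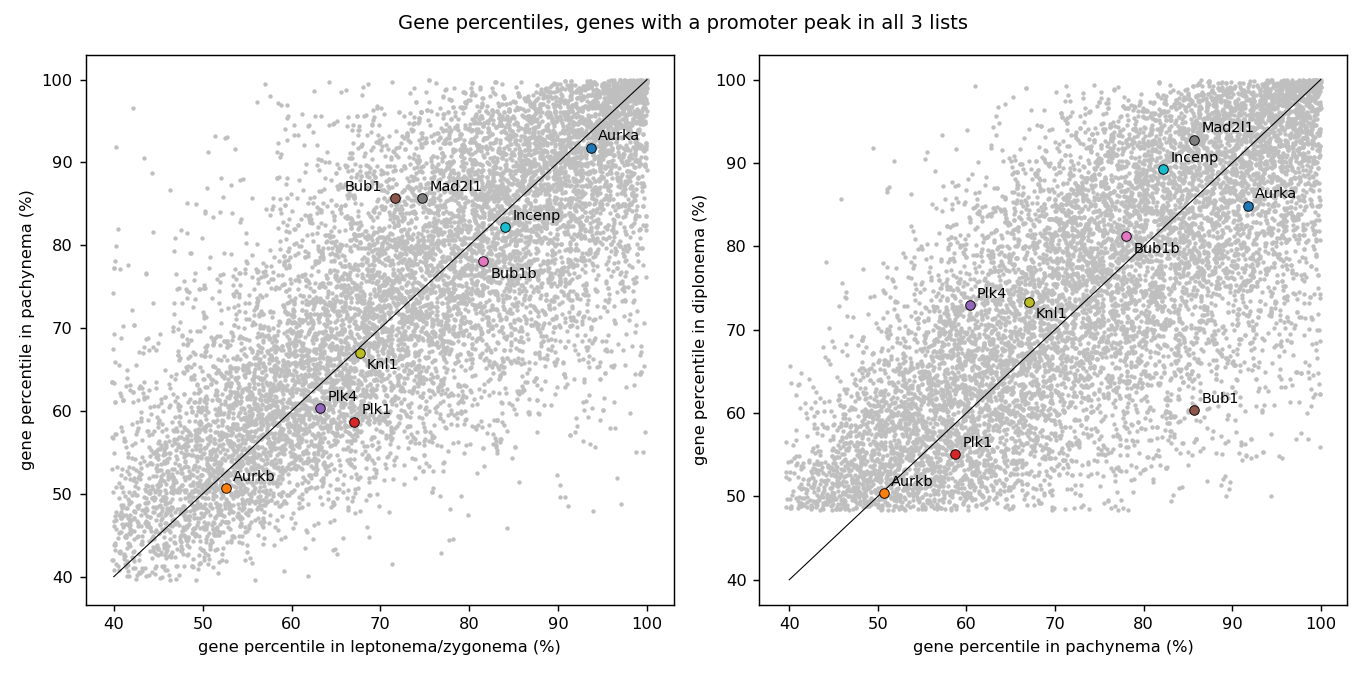
Gene percentile (%) of the strongest promoter peak for the 10851 protein-coding genes called in all 3 lists (grey points), pachynema against leptonema/zygonema on the left and diplonema against pachynema on the right. Coloured points are the 9 called genes of the set and the line marks equal percentiles. Bub1 and Mad2l1 lie above the line on the left, both at 85.7 in pachynema, and on the right Bub1 lies far below the line at 60.3.

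By the 1000 bp rule, gene-body peaks of these genes were found in LZ and in no other list. This depended on the rule: with TSSs under 500 bp away there were 4 in LZ, 2 in P and 1 in D, and with distance from the peak centre 4 in LZ and 2 in P. With protein-coding TSSs only, or the 5′-most TSS only, there were 4 in LZ and 1 in P. In LZ 1 of the 3 was left with a score of at least 0.5, a p-value of at most 0.01 or lists of equal size. There, Aurka held an intronic peak (chr2:172358071-172358940, score 0.892, list percentile 74.2) that lay 4191 bp from its nearest own TSS and touched no exon. A weaker Aurka peak (chr2:172356911-172357310, score 0.45, list percentile 32.4) overlapped exons by 246 bp, 5821 bp from the nearest own TSS. Another, at the 3′ end of Bub1 (chr2:127800751-127801410, score 0.289, list percentile 1.8), overlapped an exon by 289 bp and ran 371 bp past the gene. It was among the weakest calls of its list. None of these 3 peaks overlapped a peak of the P or D list.

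Of the promoter peaks, the 2 closest to the distance limit owed their class to start sites of transcripts with a retained intron. In LZ an Incenp peak (chr19:9886501-9886960, score 0.626, list percentile 54.1) was 992 bp from such a TSS and 12591 bp from the gene start. In P a Bub1b peak (chr2:118601071-118601390, score 0.549, list percentile 47.3) was 953 bp from such a TSS and 2860 bp from the gene start, inside an intron. Neither was the strongest peak of its gene, and neither overlapped a peak in another list. The next closest, a Knl1 peak in P, was 841 bp away. Just outside the limit, the nearest peaks were the upstream Incenp peaks at 1860 to 1980 bp and the Bub1 peak at 3856 bp. No value of a strongest promoter peak rested on a peak near the limit.

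Other genes of spindle, kinetochore and centriole function were taken from a list of 7 roles, in which 42 genes matched the annotation. A promoter peak was called for 40 of 42 in LZ (60.2% of all protein-coding genes), 40 of 42 in P (60.5%) and 39 of 42 in D (51.6%). Every list held one for 39 of 42 (49.5% of all). The median gene percentile of the called genes was 82.0 in LZ, 84.1 in P and 89.3 in D. Of the 39 genes called in both LZ and D, 10 were higher in D by over 10 points of gene percentile (25.8% of all genes) and 3 were lower (20.2%), and 14 were lower by any amount (44.1%). The number higher in D is at the share of all genes. Between LZ and P, 9 of 39 were higher by over 10 points (14.6% of all) and 2 lower (14.5%).

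Among partners of the passenger complex and protectors of centromeric cohesion, 5 of 6 genes were called in each list and Sgo2b, a shugoshin gene, in none. Cdca8, which encodes the passenger subunit Borealin, led this role in LZ with gene percentiles of 96.8 in LZ, 95.7 in P and 92.1 in D. Activators of Aurora and Polo kinases were called for 3 of 3 genes in each list, led in LZ by Bora, an activator of PLK1 through AURKA, at 89.7, 88.8 and 92.1. Spindle checkpoint genes other than the members were called for 8 of 9 in LZ, 9 of 9 in P and 8 of 9 in D. The gene that differed was Mad2l1bp, a partner of MAD2 in silencing the checkpoint, with a P peak of score 0.287 and list percentile 2.3. Trip13, the ATPase that remodels MAD2 and the meiotic HORMAD proteins, led the role in LZ at 99.4, 99.8 and 91.7.

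Outer kinetochore genes were called for 10 of 10 in each list, led in LZ by Nuf2, a subunit of the NDC80 complex, at gene percentiles of 90.7, 89.0 and 91.1. Centriole duplication genes were called for 4 of 4 in each list, led in LZ by Cenpj, a centriole elongation factor, at 96.4, 89.7 and 95.8. Of the other Polo-like and division kinases, 7 of 7 were called in LZ and 6 of 7 in P and in D. Plk5 was called in LZ only, with a score of 0.366. Nek2, a centrosomal kinase, led in LZ at 92.0, 96.8 and 99.6. Anaphase genes were called for 3 of 3, and Espl1, which encodes separase, led in LZ at 68.5, 93.3 and 95.1.

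**Figure D4:**
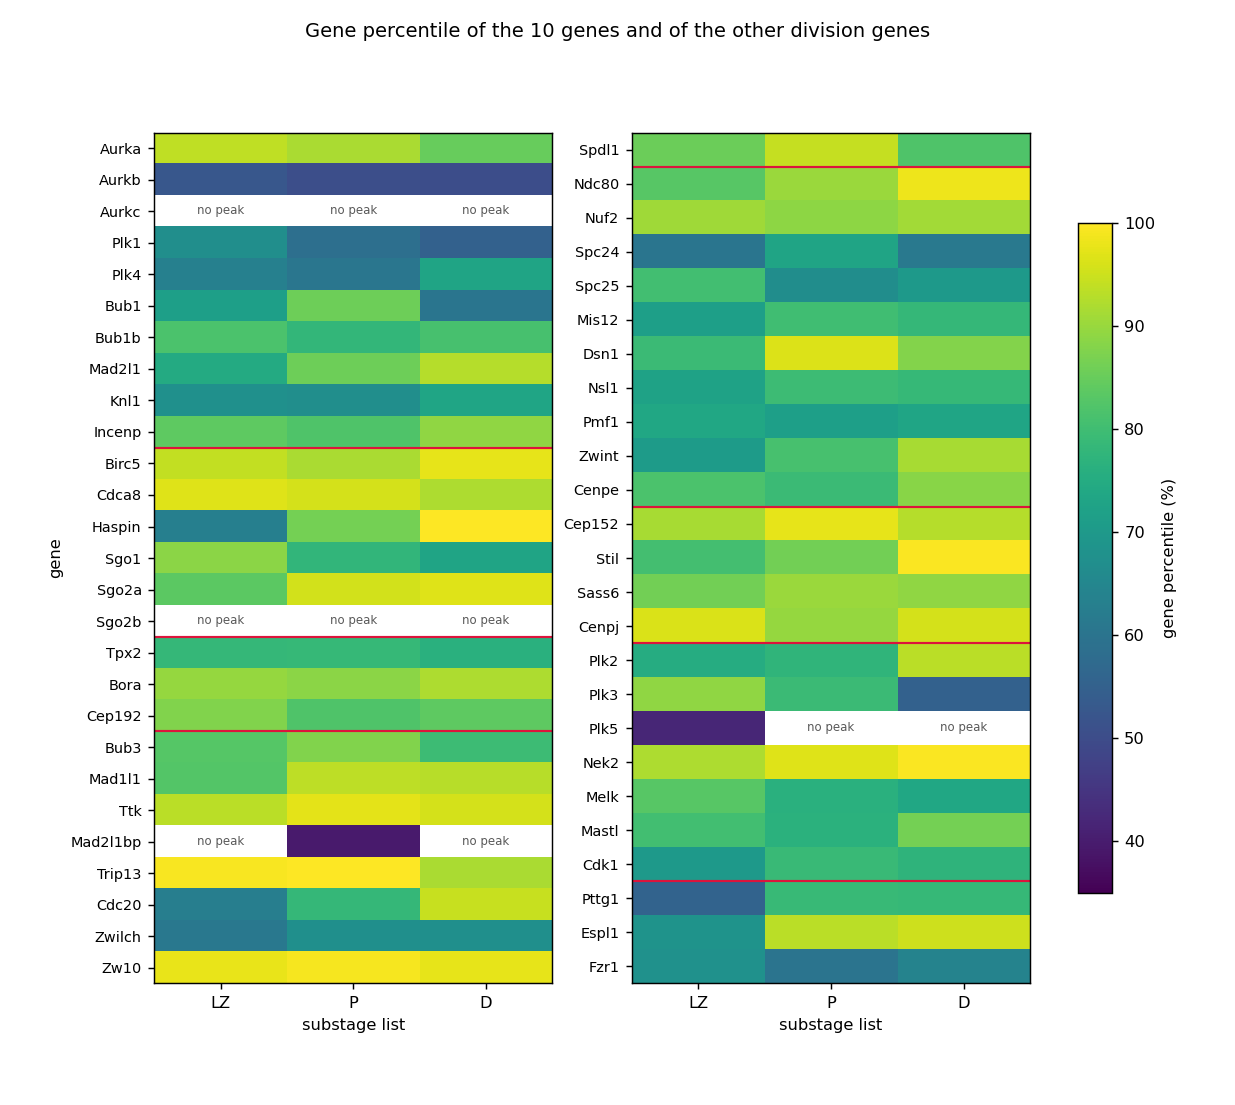
Gene percentile (%, colour) of the strongest promoter peak in the 3 lists (LZ, leptonema/zygonema; P, pachynema; D, diplonema) for the 10 genes (first block) and the 42 other genes, with red lines between roles. White cells marked "no peak" had no promoter peak. The empty rows are Aurkc and Sgo2b, and Mad2l1bp and Plk5 are called in a single list.

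The labelled substages were set beside marker genes. Of 7 leptonema/zygonema markers, 7 had a promoter peak in each list. Over all protein-coding genes the share with one was 60.2% in LZ, 60.5% in P and 51.6% in D. Of the 7 markers, 3 had a lower gene percentile in D than in LZ, near the share of all genes called in both lists (44.1%). The median of the 7 was 75.4 in LZ, 82.3 in P and 76.3 in D. Rec8, a meiotic cohesin subunit, had gene percentiles of 98.4 in LZ, 73.2 in P and 49.0 in D, Dmc1, the meiotic recombinase, 74.9, 55.9 and 57.8, and Prdm9, which places recombination hotspots, 75.4, 82.3 and 68.3. The other markers were not lower in D than in LZ by gene percentile. Sycp3, of the synaptonemal complex, stood at 68.5, 86.7 and 98.3, Hormad1 at 94.2, 97.5 and 99.8, and Meiob at 95.9, 94.4 and 100. Spo11, which makes the double-strand breaks, stood at 75.3, 71.4 and 76.3. By list percentile Spo11 was lower in D (81.0) than in LZ (86.4). Of 6 pachynema markers, 5 were called in LZ, 6 in P and 6 in D, and the gene missing in LZ was Pou5f2. Piwil1, which encodes a piRNA-binding protein, had gene percentiles of 56.0, 77.1 and 99.1, and Mybl1, which encodes A-MYB, 77.2, 81.6 and 68.1. Hspa2 (79.6, 77.5 and 89.4), Ccna1 (88.0, 86.3 and 96.4) and Ldhc (99.4, 97.3 and 97.5) were lower in P than in LZ by gene percentile. By list percentile Hspa2 (88.9 in LZ and 89.6 in P) and Ccna1 (93.3 and 94.1) were higher in P, and Ldhc (99.6 and 98.8) lower. Spermatid markers were called for 4 of 5 genes in each list, with Tnp2 in none, and their median gene percentile was 58.3 in LZ, 56.7 in P and 75.9 in D. Prm1 and Prm2, the protamine genes, carried the same peak score in each list and stood at 51.6, 48.4 and 69.1, and Tnp1, a transition protein gene, at 65.1, 65.1 and 86.5. Acrv1, an acrosomal gene, stood at 95.8, 95.8 and 82.7. Of the 4 called spermatid markers, 3 were thus higher in D than in LZ by over 10 points (25.8% of all genes called in both lists) and 1 lower (20.2%). As Prm1 and Prm2 had the same score in each list, they may not be separate observations. By gene percentile Prm1, Prm2 and Tnp1 ranked higher in D than in LZ, as Mad2l1 and Plk4 did, and Acrv1 ranked lower. The part of spermatids in those values was not tested. Cycling-cell markers were called for 5 of 5 in each list, with a median gene percentile of 80.0, 82.3 and 89.8. Mki67 stood at 96.7, 86.2 and 92.8 and Mcm2 at 80.0, 82.3 and 65.5, both lower in D than in LZ. Top2a stood at 83.4, 92.4 and 95.2, Pcna at 73.4, 72.0 and 89.8 and Ccnb1 at 57.5, 51.3 and 58.1. The list percentile of Ccnb1 was lower in D (47.8) than in LZ (70.3). Called peaks did not, therefore, separate the substages by presence or absence for most markers.

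Markers of cells outside prophase I were examined beside the genes that ranked lower in D. Of 6 spermatogonial markers, 5 were called in LZ, 5 in P and 4 in D. Gfra1 was called in none, and Sohlh1 was called in LZ and P (list percentiles of 75.6 and 43.9) but not in D. Kit had list percentiles of 82.3, 82.9 and 16.8 and gene percentiles of 69.1, 67.8 and 50.9. Dmrt1 had list percentiles of 84.2, 86.5 and 14.1 and gene percentiles of 71.9, 72.2 and 50.4. Zbtb16 and Uchl1 had gene percentiles of 58.1 and 67.8 in LZ and 65.7 and 70.5 in D. Their list percentiles were 71.3 and 81.3 in LZ and 66.2 and 73.7 in D, so their direction depends on the ranking. The median gene percentile of the called spermatogonial markers was 67.8 in LZ, 67.8 in P and 58.3 in D. By gene percentile Kit and Dmrt1 thus ranked lower in D than in LZ, as Plk1 and Bub1 did, whereas Zbtb16 and Uchl1 ranked higher. Of the 4 spermatogonial markers called in LZ and D, 2 were lower in D by over 10 points (20.2% of all genes) and 0 higher (25.8%). The part of spermatogonia in those values was not tested. Of 5 Sertoli cell markers, 2 were called in LZ, 4 in P and 3 in D, with Amh in none, Wt1 in P and D, and Cldn11 in P. Markers of Leydig cells (0 of 4), peritubular cells (0 of 2), macrophages (0 of 3) and endothelium (0 of 2) had no promoter peak in any list: Cyp17a1, Hsd3b1, Insl3, Star, Acta2, Myh11, Cd68, Csf1r, Adgre1, Pecam1 and Cdh5. Of all protein-coding genes, 35.9% had none in any list.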

How the data were processed

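The leChRO-seq libraries, 12 in 3 substages, were made from STAPUT-enriched spermatocytes. Per the methods and labels, the authors used molecular identifiers to drop PCR duplicates (PRINSEQ lite), trimmed with cutadapt, mapped with BWA to mm10 plus a ribosomal RNA unit, converted reads with bedtools, merged the libraries of a substage and ran dREG with default settings (version not given in the sources used here). The deposited score of each peak is dREG's own. The deposited p-value was at most 0.05 in every list, and whether it was adjusted is not given in the sources used here. It was 0 for 29.41%, 27.81% and 24.11% of peaks in LZ, P and D, of which 32.78%, 34.18% and 41.67% scored below the list median, so p-values were used only as an alternative filter. No read counts are in the lists, and depth per library was not analysed here.

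Peaks were joined by coordinate to GENCODE M21 (GRCm38), by distance from peak edge to TSS. Promoters were read from a RefSeq table (GRCm38.p6). No test between substages was possible with 1 list each. Steps were tested on simulated data. The genes named were the 10 members, the other pathway genes and markers called in no list or differing between lists (at most 25), the leading gene of each role in LZ, and neighbours with a TSS under 1000 bp from a promoter peak. Other markers were named after their values were seen. The members and lists were chosen with earlier results of these data known. Alternatives were other TSS distances and sets, lists of equal size, a higher minimum score, a lower maximum p-value, other rankings, and, added after seeing the data, RefSeq gene starts and a rank among genes called in every list. Analyses used matplotlib 3.10.9, scipy 1.17.1, pandas 2.3.3 and numpy 2.4.6 under Python 3.11.15.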

Additional observations from a re-analysis of the deposited data

How the results depend on the processing

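No paired analysis was possible because the libraries of a substage were merged before calling, so no column carries a replicate number. Leaving out a replicate could not be tried either. The number of genes called stayed at 9 in each list under every alternative, except 7 in D with a dREG score of at least 0.5, and 7 in each list with RefSeq gene starts, which hold 8 of the 10 genes. The count of gene-body peaks (3 in LZ, 0 in P and 0 in D) depended on what counts as a promoter peak. It was 4 in LZ under each of these: with TSSs under 500 bp away (2 in P and 1 in D), with distance from the peak centre (2 in P), and with protein-coding TSSs only or the 5′-most TSS only (1 in P). In LZ it was 1 with a score of at least 0.5, with a p-value of at most 0.01 and with lists of equal size. Lists of equal size moved list-percentile differences between D and P: Aurkb from -42.0 to -8.3, Plk1 from -35.7 to -14.8, Bub1 from -39.8 to -35.0, Plk4 from 2.1 to 21.3, Mad2l1 from 1.6 to 6.4 and Incenp from 0.7 to 6.8. For Bub1 the same difference was -39.8 and ran from -74.2 with a score of at least 0.5 to -25.3 among genes. Among the P minus LZ and D minus P differences, those that changed sign under at least 1 setting were of 4 genes. All of them were under 5 points among all peaks. D minus LZ was not put through the settings. It was -0.2 points among all peaks and 9.7 among genes for Plk4, and -3.6 and 5.7 for Knl1, so its sign also depends on the ranking. For Aurka, P minus LZ was 0.1 points among all peaks, -0.031 with a score of at least 0.5, -0.7 among proximal peaks, -1.9 among genes and -3.9 among genes called in every list. For Bub1b, P minus LZ was -0.1 and became 0.6 with lists of equal size, and D minus P was -3.7 and became 4.1 with lists of equal size, 3.1 among genes and 6.2 among genes called in every list. For Knl1, P minus LZ was 1.0 and became -0.5 among proximal peaks, -0.6 among genes and -2.4 among genes called in every list, and D minus P was -4.7 and became 9.0 with lists of equal size, 6.3 among genes and 12.1 among genes called in every list. For Incenp, P minus LZ was 0.9 and became -0.3 among proximal peaks, -1.9 among genes and -4.2 among genes called in every list. The 4 settings that changed only the TSSs or the distance left all 72 differences as they were. Under the 6 settings that altered the ranking, 15 of 106 differences were classed as unchanged, 74 as moved with the same sign and 17 as changed in sign. No interval was computed for a difference, so these classes say nothing about its error. The cause was not tested, other than that lists of equal size drop the weakest calls of LZ and P by construction. Without read counts or replicate lists, the depth behind a call and the error of a rank are unknown.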

Other observations

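Of the 10 genes, 4 lie on chromosome 2 (Aurka, Bub1, Bub1b and Knl1). Bub1b and Knl1 were both called in every list, with starts on the same strand. Among genes outside the set, Haspin, which encodes the kinase that marks histone H3 for the passenger complex, had gene percentiles of 63.1 in LZ, 86.5 in P and 99.9 in D. Cdc20, the checkpoint target that activates the anaphase-promoting complex, had 62.7, 78.2 and 94.6. Both were thus higher at each step, as Mad2l1 was. Plk3, another Polo-like kinase, had 89.3, 79.4 and 55.2, and was lower at each step, as Plk1 was. Plk2, also a Polo-like kinase, went the other way, with 75.2 in LZ, 77.6 in P and 93.2 in D. The share of all genes that were higher or lower at both steps was not computed. These genes were chosen after their values were seen, and each value comes from 1 pooled list.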
